A study of Mus musculus with 577 samples.

Results

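Granulosa cells cut singly from ovarian sections were compared between LCM-seq and DRaqL-Smart-seq2. The samples were chosen by their names in the read-count table, with 37 cells by LCM-seq and 34 by DRaqL-Smart-seq2, or 71 of the 577 samples of the series. All cells came from 8-week-old female mice whose frozen ovaries were cut into 15-μm sections, fixed and stained with cresyl violet in isopropanol, and dissected with a laser (laser capture microdissection, LCM). The labels name no mouse, strain or genotype, and per the methods of the study both protocols were run on sections of a single ovary. Each library is 1 cell, so that each method counted as 1 sample. The values below therefore come with the spread among cells, and the methods were not tested against each other. The labels class 17 LCM-seq and 15 DRaqL-Smart-seq2 cells as neighboring, and 20 and 19 as non-neighboring.

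Granulosa cells surround the oocyte in the follicle, nourish it through direct contacts, and make inhibins, activins and estrogen in response to follicle-stimulating hormone. In Smart-seq2, reverse transcription starts from an oligo dT primer on the poly(A) tail, and the enzyme jumps onto a template-switching oligo when it reaches the 5′ end of the RNA, so that complete cDNAs can be amplified with a single primer. A mild detergent lyses fresh cells for this reaction, whereas alcohol fixation of a section precipitates proteins around the RNA.

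The methods differed in the lysis and also in the chemistry that followed it. For LCM-seq, which is Smart-seq2 applied to LCM cells, each cell was lysed in 6.4 μl that held Triton X-100, a mild detergent, added as 0.17 μl from a 5% stock, at 72°C for 3 min, reverse transcribed with SuperScript II and amplified with KAPA HiFi polymerase. For DRaqL-Smart-seq2, it was lysed with sodium deoxycholate, a bile salt detergent, added as 0.4 μl from a 5% stock, in the same volume and at the same temperature for 6 min. The detergent was then quenched with Triton X-100 and albumin, and the RNA was reverse transcribed with SuperScript II and SuperScript III and amplified with SeqAmp polymerase. Lysis, enzymes, oligos and polymerase changed together, and their parts in any difference cannot be told apart. Both lysis mixtures held 0.16 μl of ERCC spike-in RNA, a set of synthetic RNAs, at a dilution of 1:500000.

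The template-switching oligos are shown because they are the designed sequences that differ between the methods. The bases in capitals are the 2 that the DRaqL-Smart-seq2 oligo has in addition, and its 5′ end carries an amino group.
LCM-seq template-switching oligo: aagcagtggtatcaacgcagagtacggg
DRaqL-Smart-seq2 N-template-switching oligo: aagcagtggtatcaacgcagagtacGCggg
The oligo dT primer had the same design in both methods, with the following 5′ part, a 6-base index that marks the cell within a pool, and 30 T before the last positions.
Oligo dT VN, 5′ part: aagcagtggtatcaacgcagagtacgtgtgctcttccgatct
The PCR primers of both methods had the same 23 letters, with which the oligos above also begin, and that of DRaqL-Smart-seq2 carried a 5′ amino group.
IS and N-IS PCR primer: aagcagtggtatcaacgcagagt

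Libraries were sequenced in 8 pools, 4 of each method, and all pools used the same 10 in-line indexes. Pool and method therefore cannot be told apart. The deposited values are reads per gene within 10 kb of annotated 3′ ends, for 22060 protein-coding genes and 23845 other genes. LCM-seq libraries held a median of 652360 gene reads (110840 to 1184140) and DRaqL-Smart-seq2 libraries 1292522 (195997 to 3285756), so that depth moved with the method, and the main counts of detected genes are also given with every library thinned to 110840 reads. No pair of libraries held identical values. By limits set after the values were seen, 1 LCM-seq cell stood apart, with 13.7% of its reads on long intergenic noncoding RNAs against a median of 3.50%. Likewise, 3 DRaqL-Smart-seq2 cells stood apart, a pair with the lowest numbers of protein-coding genes (4498 and 4700) and 1 with 11.02% of reads on TEC loci, an annotation class of transcribed loci that await experimental proof.

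The cells carried transcripts that define granulosa cells in both methods. Inha, the α subunit of inhibin, had reads in all 71 cells, and Foxl2, the transcription factor that maintains granulosa cell identity, in 36 of 37 LCM-seq cells and 34 of 34 DRaqL-Smart-seq2 cells. The level of Inha (chromosome 1 of GRCm38, 75507077-75510366, plus strand) was 11.24 ± 0.71 (SD, n = 37 cells) by LCM-seq and 10.81 ± 0.56 (n = 34) by DRaqL-Smart-seq2 on the scale of log2 (RPM+1), where RPM is a gene's reads scaled to the same total in every cell. All levels below are on this scale unless RPM is named, as mean ± SD over cells with LCM-seq first, and differences are DRaqL-Smart-seq2 minus LCM-seq. The lowest, median and highest cells for Inha were at 10.01, 11.20 and 13.07 by LCM-seq and at 9.56, 10.81 and 11.78 by DRaqL-Smart-seq2, and the methods overlapped over most of this range. For Foxl2 (chromosome 9, 98955288-98958543, plus strand), the level was 6.34 ± 1.86 and 6.23 ± 1.11, and the sign of this difference of -0.11 turned with the processing (-0.45 to 0.20 over the alternatives).

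Other granulosa genes differed by less than the SD over cells. Fst, which encodes the activin-binding follistatin, was at 8.32 ± 0.76 and 8.00 ± 0.72, Amhr2, the receptor of anti-Müllerian hormone, at 6.35 ± 1.40 and 6.41 ± 0.91, and Nr5a2, a nuclear receptor required for ovulation, at 8.86 ± 1.37 and 9.10 ± 1.17. Fshr, the receptor of follicle-stimulating hormone, was at 7.20 ± 2.05 and 8.14 ± 1.41, and Hsd17b1, an enzyme of estradiol synthesis, at 8.00 ± 1.25 and 7.18 ± 1.51. The β subunits of activin and inhibin, Inhba (4.77 ± 4.39 and 3.22 ± 3.19) and Inhbb (5.66 ± 3.65 and 4.47 ± 3.27), had differences of -1.55 and -1.19, the only ones of the 12 granulosa markers past 1 in size, where 1.22% of all protein-coding genes with reads were below -1 and 6.83% above 1. Over the 12 markers, the median difference was -0.37. It was 0.01 among neighboring cells and -0.50 among non-neighboring cells. The summed level of the 12 was 4235 RPM (1715 to 18459) and 3548 RPM (1477 to 8804), with 10 of 34 DRaqL-Smart-seq2 cells above the LCM-seq median.

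Transcripts of oocytes were found in cells of both methods. The 18 oocyte markers summed to medians of 962 RPM (304 to 9187) and 646 RPM (267 to 4756). Above 2000 RPM, a limit set after the values were seen, lay 8 LCM-seq cells, all of them neighboring, and 5 DRaqL-Smart-seq2 cells, 3 of them neighboring. Ddx4, an RNA helicase of germ cells, had reads in every cell at a level of 9.14 ± 0.57 and 8.68 ± 0.51. Without it, the other oocyte markers summed to a median of 87.3 RPM and 188 RPM. This order did not hold within position, with medians of 1216 and 590 RPM in neighboring cells and 20.2 and 19.4 RPM in non-neighboring cells. The egg coat gene Zp3 had reads in 20 of 37 and 18 of 34 cells.

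Markers of other cell types had low summed levels in the median cell, while single cells reached higher values. The 6 theca and interstitial markers summed to medians of 17.01 RPM (0 to 482) and 33.8 RPM (0 to 1062), the 6 stroma markers to 25.2 RPM (0 to 2616) and 24.5 RPM (0 to 1201), and the 6 endothelium markers to 57.4 RPM (18.9 to 227) and 29.1 RPM (15.7 to 199). Cyp17a1, an enzyme of androgen synthesis in theca cells, and Star, the cholesterol carrier of steroid-making cells, had reads in 0 of 37 LCM-seq cells, which allows a share of cells with reads of up to 9.49% (exact Clopper-Pearson 95% interval, for counting error among cells of this ovary alone), and in 3 and 6 DRaqL-Smart-seq2 cells. These counts are at the deposited depth. Over the 6 theca and interstitial markers, the mean share of cells with reads was 23.9% and 38.2%, and 18.9% and 23.5% at equal depth. Of the endothelium markers, Cdh5 had reads in every cell of both methods, whereas Kdr had reads in 1 of 37 and 4 of 34 cells and Cldn5 in none. The 4 smooth muscle, 5 blood and 7 immune markers had medians of 0 by LCM-seq and of 2.26, 0.780 and 0.996 RPM by DRaqL-Smart-seq2, and the 4 luteal markers of 1.82 and 2.69 RPM. The part of other cells in the results below was not tested beyond leaving out the cells named above.

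More genes were detected, with at least 1 read, per cell by DRaqL-Smart-seq2. The number of protein-coding genes per cell was 8424 ± 1213 (SD, n = 37 cells) by LCM-seq, with 5648, 8407 and 10373 in the lowest, median and highest cells. By DRaqL-Smart-seq2, it was 9662 ± 1599 (n = 34), with 4498, 9876 and 11874. The mean was thus higher by 1238 genes, or 14.7%, a difference of the size of the SD over cells. At equal depth, the numbers were 6498 ± 913 and 6979 ± 931, and the difference was 481 genes, or 7.40%.

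The size of this difference varied with the cells included. It was 823 genes among neighboring cells and 1601 among non-neighboring cells. Without the cells that stood apart it was 1631, and without the cells above 2000 RPM of oocyte markers it was 1590.2. Between cells with the same in-line index, the mean was higher by DRaqL-Smart-seq2 for 9 of 10 indexes, with differences from -160.5 to 2449.8 genes. The means of the 4 LCM-seq pools ranged from 7769.8 to 8815 genes and those of the 4 DRaqL-Smart-seq2 pools from 9104 to 10241, so that the pools did not overlap at the deposited depth. At equal depth, they ranged from 6016 to 6701 and from 6691 to 7408 genes and overlapped, and the mean was again higher by DRaqL-Smart-seq2 for 9 of 10 indexes.

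The other genes, which are mainly noncoding RNAs and pseudogenes, were detected at 3452 ± 508 and 4167 ± 759 per cell, or 714 more by DRaqL-Smart-seq2. At equal depth, the difference was 76.9 genes (2327 ± 199.8 and 2404 ± 203), less than the SD over cells.

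**Figure D1:**
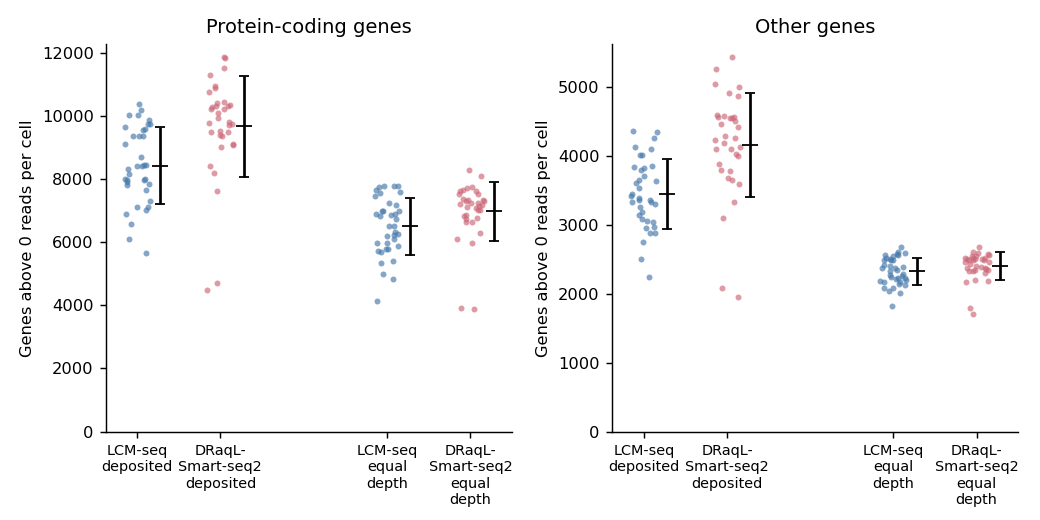
Genes above 0 reads per cell (y axis, number of genes) for protein-coding genes and other genes, by method, at the deposited depth and with every library thinned to 110840 reads (equal depth). Points are single cells (37 by LCM-seq, 34 by DRaqL-Smart-seq2), and the marks are means with SDs. The distance between the means shrinks from 1238 to 481 protein-coding genes and from 714 to 76.9 other genes at equal depth.

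The gain in the share of cells with reads was largest, in percentage points, for protein-coding genes in the middle of the range of levels. The share is bounded, so that genes found in nearly no or nearly all cells had less room for a difference. Genes were binned by their mean level over the 71 cells. For 2363 genes between 2 and 3, the mean share of cells with a read was 58.7% by LCM-seq and 70.8% by DRaqL-Smart-seq2, or 12.1 percentage points more, and 5.77 points more at equal depth. The largest difference at equal depth was 7.28 points, for genes between 3 and 4. For 931 genes between 6 and 8, the shares were 98.4% and 98.9%. For 9060 genes up to 1, the shares were 11.2% and 14.7%, and at equal depth 4.91% and 4.58%, so that the sign of this difference turned with depth. At the deposited depth, 1110 protein-coding genes had reads in every LCM-seq cell and 1362 in every DRaqL-Smart-seq2 cell. Nearly equal numbers, 18791 and 18797, had reads in any cell.

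For a single gene, a difference of at least 25 percentage points in the share of cells with reads was taken as large. Of 19864 protein-coding genes with reads in any of the 71 cells, 1242 (6.25%) were higher by DRaqL-Smart-seq2 by this measure and 26 (0.131%) were lower. At equal depth, the number was 605 (3.05%) toward DRaqL-Smart-seq2, while 0.569% of the genes were lower. Of 16771 other genes, 776 (4.63%) were higher and 21 (0.125%) lower, and at equal depth 214 (1.28%) and 91 (0.543%).

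The 5 protein-coding genes with the largest difference in detection toward DRaqL-Smart-seq2 were Olfr910, Zfp820, Rgma, Serpinb6c and E030018B13Rik. Rgma, a membrane co-receptor of bone morphogenetic proteins, had reads in 4 of 37 and 25 of 34 cells, the zinc finger gene Zfp820 in 5 of 37 and 26 of 34, Serpinb6c in 8 of 37 and 27 of 34 and E030018B13Rik in 5 of 37 and 24 of 34. With thinning to equal depth, the shares of cells were 0% and 17.6% for Rgma, 8.11% and 44.1% for Zfp820, 8.11% and 20.6% for Serpinb6c and 8.11% and 50% for E030018B13Rik. The gene deposited as Olfr910 is an olfactory receptor gene annotated as Olfr915, and its model overlaps Gm49385 on the same strand. It had reads in 2 of 37 cells (5.41%, 0.661% to 18.2%) and 24 of 34 (70.6%, 52.5% to 84.9%). Ranges beside shares of cells, here and below, are exact Clopper-Pearson 95% intervals for counting error among cells of this ovary alone. They do not test the methods against each other, and the genes were picked by the size of their differences. At equal depth, the shares of Olfr910 were 2.70% and 11.8%, a smaller difference in the same direction. Toward LCM-seq, the difference was largest for Iqcj, which had reads in 34 of 37 cells (91.9%, 78.1% to 98.3%) and 8 of 34 (23.5%, 10.7% to 41.2%). The next were Golt1a (27 of 37 and 9 of 34), Sgtb (30 of 37 and 14 of 34), Fam83g (25 of 37 and 10 of 34) and the interferon gene Ifna4 (16 of 37 and 2 of 34). At equal depth, the shares were 67.6% and 2.94% for Iqcj, 35.1% and 5.88% for Golt1a, 29.7% and 11.8% for Sgtb and 13.5% and 0% for Ifna4, while those of Fam83g (16.2% and 17.6%) turned the sign of its difference. Iqcj lies on chromosome 3 (67892220-68056593, plus strand) and overlaps, on the same strand, a longer gene model that joins it to Schip1. The gene deposited under the name Schip1 is this joined model, annotated as Iqschfp. It was lower as well, at 4.05 ± 1.27 and 1.74 ± 1.36, but is not a locus separate from Iqcj. Whether the counting used the strand is not given in the sources used here, so that reads of overlapping genes may have gone to either of them.

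Gene classes gained detection to different degrees. The mean number of detected genes per cell was 43.5% higher by DRaqL-Smart-seq2 for TEC loci (132 and 189 genes), 33.8% higher for antisense genes (190.4 and 255) and 30.6% higher for small nucleolar RNAs (snoRNAs, which guide the modification of ribosomal RNA, at 151 and 197). It was 26.6% higher for microRNA loci, 22.98% higher for long intergenic noncoding RNAs (lincRNAs), 15.6% higher for processed pseudogenes, and the difference was -11.8% for mitochondrial transfer RNAs. At equal depth, the values were 28.1% for TEC loci, 18.5% for snoRNAs, 9.70% for microRNA loci, 9.17% for antisense genes, 7.40% for protein-coding genes and 1.13% for processed pseudogenes. They were -3.24% for lincRNAs, -10.5% for unprocessed pseudogenes, -4.71% for ribosomal RNA loci and -29.2% for mitochondrial transfer RNAs, so that the sign turned with depth for the first 3 of these. Many snoRNA and microRNA loci lie within longer genes, whose reads they may hold.

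The levels of single genes followed the classes in part. Of snoRNA loci with reads, 52 of 888 were higher by more than 1 in mean log2 (RPM+1) and 3 lower, against 392 (2.34%) and 155 (0.924%) of the 16771 other genes. Of TEC loci, 27 of 1406 were higher and 2 lower, of antisense genes 34 of 1579 and 6, of microRNA loci 30 of 1167 and 12, and of lincRNAs 25 of 2397 and 18. Processed pseudogenes, which hold near-copies of mRNAs, had 146 of 5022 higher and 85 lower.

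The shares of reads differed most, by the ratio of medians, for mitochondrial ribosomal and transfer RNAs, TEC loci and ribosomal RNA loci. Protein-coding genes took a median of 67.1% (59.2% to 69.6%) and 65.5% (55.3% to 71.1%) of a cell's gene reads by LCM-seq and DRaqL-Smart-seq2. Processed pseudogenes took 17.1% and 15.7%, lincRNAs 3.50% and 2.69%, microRNA loci 2.55% and 2.35%, unprocessed pseudogenes 2.20% and 1.48% and snoRNAs 2.06% and 2.19%. TEC loci took 0.780% (0.480% to 2.76%) and 1.49% (1.04% to 11.02%), and 34 of 34 DRaqL-Smart-seq2 cells lay above the LCM-seq median. By its mean level, a single TEC locus, named below among the other genes, held most of this share in both methods. The difference in the TEC share is therefore mainly that of this locus. Over the 1406 TEC loci with reads, the median difference in mean log2 (RPM+1) was 0.02. Mitochondrial ribosomal RNA took 1.53% (0.867% to 2.63%) and 4.83% (2.65% to 7.38%). It was the only one of 14 classes in which the cells of the methods did not overlap, although the highest LCM-seq cell and the lowest DRaqL-Smart-seq2 cell were nearly level, and both of these were among the cells that stood apart. Ribosomal RNA loci outside of the mitochondrion took 0.164% (0.0633% to 0.312%) and 0.276% (0.106% to 0.685%), and 15 of 34 DRaqL-Smart-seq2 cells lay above the highest LCM-seq cell. Mitochondrial transfer RNAs took 0.0523% and 0.0177%. Apart from TEC loci and mitochondrial RNAs, the class shares were not split by locus. Loci with high levels, such as Yam1 and Rn18s-rs5 below, may likewise hold much of the share of their class.

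**Figure D2:**
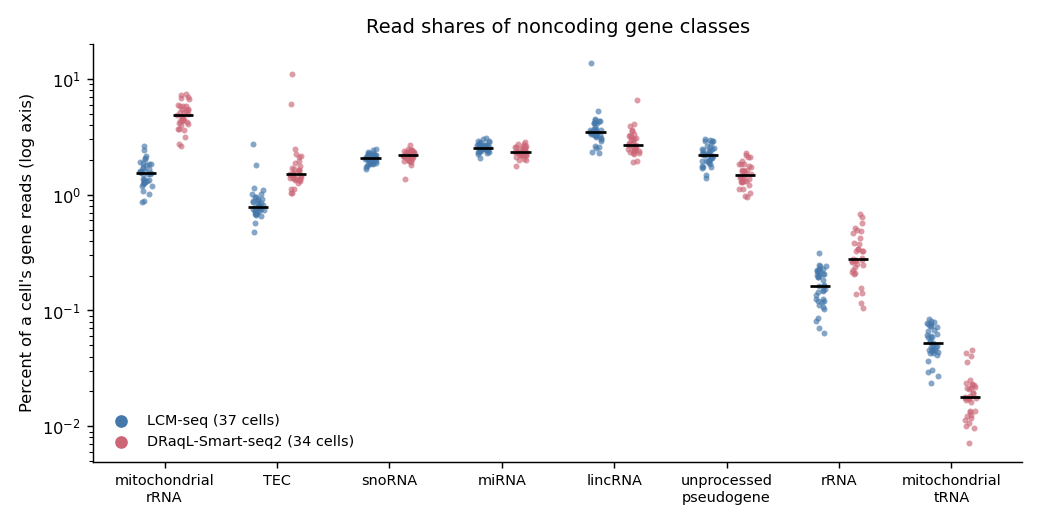
Percent of a cell's gene reads (y axis, log scale) on 8 classes of noncoding genes (x axis) in 37 LCM-seq cells and 34 DRaqL-Smart-seq2 cells. Points are single cells and lines are medians. Mitochondrial ribosomal RNA separates, at medians of 1.53% and 4.83%, whereas snoRNAs (2.06% and 2.19%) lie side by side.

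The spike-in reads gave a scale outside of the cell's own RNA. ERCC reads took a median of 20.3% (2.49% to 51.8%) of gene and ERCC reads by LCM-seq and 11.1% (5.06% to 44.3%) by DRaqL-Smart-seq2. There were 3.92 and 8.04 gene reads per ERCC read in the median cells. The number of the 92 spike-in RNAs with reads was 45.2 ± 2.66 and 43.1 ± 2.56 per cell, so that the spike-ins themselves were not found in higher number by DRaqL-Smart-seq2. The same ERCC amount was put into each lysis mixture, and whether each method recovered spike-in and cellular RNA alike was not tested.

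The mean levels of protein-coding genes lay close to each other in the methods, with a correlation of 0.972 (Pearson) or 0.953 (Spearman) across 19864 genes, which are not independent replicates. A difference in mean log2 (RPM+1) of more than 1 was taken as large, by size alone. By this measure, 1356 of the 19864 protein-coding genes (6.83%) were higher by DRaqL-Smart-seq2 and 243 (1.22%) lower. This split depended on how cells were averaged. With the log2 ratio of the mean RPM, in which the cells with the highest levels weigh most, 1069 protein-coding genes were higher and 1635 lower, and of the other genes 915 and 1183. With every library at equal depth, 1342 protein-coding genes were higher and 424 lower. For the 3790 protein-coding genes with a mean of at least 4 over the 71 cells, the median difference was 0.19, and TMM scaling, which centers the libraries on their shared genes, moved it to 0.37 and the ratio of means to -0.02. No gene separated the 34 from the 37 cells without overlap among the 36635 genes with reads.

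Pairs of cells resembled each other most within DRaqL-Smart-seq2. Pearson's r of log2 (RPM+1) over the protein-coding genes had a median of 0.613 over 666 pairs of LCM-seq cells, 0.692 over 561 pairs of DRaqL-Smart-seq2 cells and 0.642 over 1258 mixed pairs. The medians at equal depth were 0.569, 0.630 and 0.590, in the same order. The pairs share cells.

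**Figure D3:**
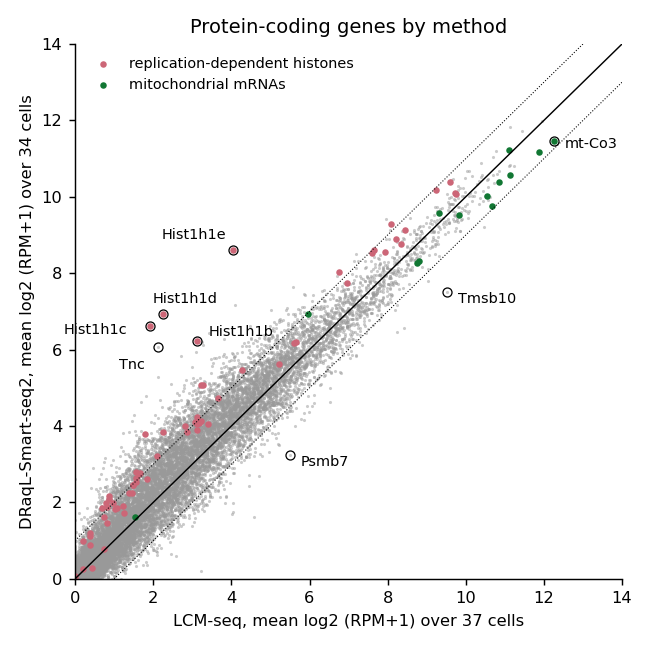
Mean log2 (RPM+1) of protein-coding genes over 37 LCM-seq cells (x axis) and 34 DRaqL-Smart-seq2 cells (y axis). Each point is a gene, the solid line marks equality and the dotted lines a difference of 1. The linker histone genes Hist1h1b to Hist1h1e lie 3.08 to 4.68 above the line, and Tmsb10 lies 2.03 below it.

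The genes with the largest differences were linker histones. Histone H1 binds the DNA between nucleosomes and compacts chromatin. Its replication-dependent genes, like those of the core histones H2A, H2B, H3 and H4, lie in clusters and are transcribed in S phase into mRNAs that mostly end in a stem-loop in place of a poly(A) tail, whereas an oligo dT primer needs a run of A. The H1 genes were set apart from the other histones after their values had been seen, since Hist1h1b, Hist1h1c, Hist1h1d and Hist1h1e were among the 10 protein-coding genes with the largest difference toward DRaqL-Smart-seq2.

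Hist1h1d (chromosome 13, 23553262-23560686, plus strand) was at 2.26 ± 2.37 and 6.94 ± 2.08, or 4.68 higher by DRaqL-Smart-seq2. Its lowest, median and highest LCM-seq cells were at 0, 1.41 and 7.21, and those by DRaqL-Smart-seq2 at 0, 7.57 and 9.94. It had reads in 22 of 37 cells (59.5%, 42.1% to 75.2%) and in 32 of 34 (94.1%, 80.3% to 99.3%), and 21 DRaqL-Smart-seq2 cells lay above the highest LCM-seq cell. Its summed reads made 17.7 RPM of all LCM-seq reads (exact Poisson 95% interval 16.1 to 19.5) and 213 RPM of all DRaqL-Smart-seq2 reads (208 to 217). Such intervals cover counting error alone, since reads from amplified cDNA without molecular identifiers are not independent molecules.

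Hist1h1c (chromosome 13, 23738808-23740367, plus strand) was at 1.93 ± 2.30 and 6.61 ± 1.88, or 4.68 higher, with reads in 19 of 37 and 33 of 34 cells. Its lowest, median and highest cells were at 0, 1.17 and 7.12 by LCM-seq and 0, 7.23 and 8.78 by DRaqL-Smart-seq2. Hist1h1e (23620629-23622558, minus strand), whose model overlaps Hist1h2be on the same strand, was at 4.05 ± 2.76 and 8.61 ± 1.35, or 4.56 higher. Its lowest, median and highest cells were at 0, 5.41 and 7.50 and 2.73, 8.96 and 9.99, and 30 of 34 DRaqL-Smart-seq2 cells exceeded the highest LCM-seq cell, the largest number among the H1 genes. Hist1h1b (21779883-21780625, minus strand) was at 3.13 ± 2.50 and 6.21 ± 1.50, or 3.08 higher, with reads in 27 of 37 and 34 of 34 cells. The remaining members had smaller values, with Hist1h1a at 1.01 ± 1.97 and 1.82 ± 2.02 and the testis-specific Hist1h1t without reads in the LCM-seq cells and with reads in 3 of 34 DRaqL-Smart-seq2 cells.

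The 6 H1 genes together took medians of 88.2 RPM (0 to 352) and 887 RPM (83.4 to 2215), a ratio of 10.1. In 29 of 34 DRaqL-Smart-seq2 cells the sum was above that of the highest LCM-seq cell. The ratio was 10.4 among neighboring cells and 8.69 among non-neighboring cells, and the median was higher by DRaqL-Smart-seq2 for 10 of 10 in-line indexes. At equal depth, Hist1h1c was found in 37.8% of LCM-seq cells and 94.1% of DRaqL-Smart-seq2 cells, and Hist1h1e in 67.6% and 100%. With the log2 ratio of mean RPM, which turned the split of all genes, Hist1h1d was higher by 3.58, Hist1h1c by 3.39, Hist1h1e by 3.29 and Hist1h1b by 1.97.

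Core histones were higher by less. Over the 61 core histone genes, the median difference was 0.92, with 60 above 0, 23 above 1 and 0 below -1, against a median of 0.04 over all protein-coding genes with reads, of which 6.83% were above 1. All 67 replication-dependent histone genes summed to medians of 6033 RPM (388 to 24535) and 11704 RPM (1648 to 27876), and 30 of 34 DRaqL-Smart-seq2 cells lay above the LCM-seq median but 1 above the highest LCM-seq cell. The members with the highest levels were Hist1h2ag (9.60 ± 1.68 and 10.38 ± 1.09), Hist1h2ap (9.73 ± 1.54 and 10.10 ± 1.00), Hist1h2ao (9.75 ± 1.53 and 10.08 ± 1.02) and Hist1h2ah (9.23 ± 1.68 and 10.17 ± 1.11), whose differences of 0.34 to 0.95 were within the SD over cells. These H2A genes have near-identical copies, and the division of reads among them is uncertain. Over the 67 genes, the mean share of cells with reads was 59.8% and 77.8%, and 48.3% and 62.9% at equal depth.

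Replacement histones, which are mostly made throughout the cell cycle from polyadenylated mRNAs, were looked at after the values above had been seen. H3f3b was at 8.68 ± 0.65 and 8.68 ± 0.46, H2afz at 9.86 ± 0.47 and 9.52 ± 0.90 and H3f3a at 7.77 ± 0.46 and 7.17 ± 0.97. The differences were -0.42 for H2afv, 0.28 for H2afx and 0.43 for H2afy. An annotated transcript of H2afx also held the stem-loop letters that are described below. The replacement linker histones H1fx (2.48 ± 1.83 and 2.98 ± 1.63) and H1f0 (3.34 ± 2.54 and 4.34 ± 2.32) had differences of 0.50 and 1.00, smaller than those of Hist1h1b to Hist1h1e.

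The stem-loop letters that end histone mRNAs were searched in the annotated transcripts (GENCODE M21, on GRCm38), a check added after the values were seen. They are shown for the H1 genes that hold them, with the loop in capitals.
Hist1h1c: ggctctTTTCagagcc
Hist1h1d: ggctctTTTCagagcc
Hist1h1e: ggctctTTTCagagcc
Hist1h1t: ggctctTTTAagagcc
The motif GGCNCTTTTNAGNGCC was searched on the transcript strand, and 40 of 65 histone genes of the list with a transcript held it, against 43 of 21667 (0.198%) protein-coding genes with a transcript. The transcripts of Hist1h1c, Hist1h1d, Hist1h1e and Hist1h1t are annotated 840, 4884, 1153 and 185 bases past the stem-loop, and those of Hist1h1a and Hist1h1b held no match. Of the 67 listed histones, the 20 annotated at least 100 bases past it had a median difference of 0.79, the 20 annotated less far 0.93, and the 27 without a match 0.95. The medians of the 3 groups were thus close to each other. The group without a match includes Hist1h2bh and Hist1h2bm, which had no transcript to search. An annotated model may also end before the stem-loop, so that the lack of a match does not show that the mRNA lacks it.

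Cell cycle genes were set beside the histones, whose mRNAs are made in S phase. Over 25 genes of the cell cycle and mitosis, the median difference was 0.29, with 1 above 1 and 0 below -1. Among all protein-coding genes with reads, 6.83% were above 1 and 1.22% below -1. Top2a, the topoisomerase of dividing cells, was at 7.82 ± 1.05 and 8.48 ± 1.05, Pcna, the clamp of DNA polymerase, at 6.99 ± 1.50 and 7.34 ± 1.17, Mki67, a protein of proliferating nuclei, at 6.75 ± 1.84 and 7.18 ± 2.12, and Ccnd2, a cyclin induced by follicle-stimulating hormone, at 8.75 ± 0.77 and 8.49 ± 0.80. The list summed to medians of 2308 RPM (1136 to 5228) and 2483 RPM (1086 to 4078), and 18 of 34 DRaqL-Smart-seq2 cells lay above the LCM-seq median. For the H1 sum, 33 of 34 did, but the H1 genes were picked by their differences in these same cells, so that the counts are not comparable. Whether S phase had a part in the histone differences was not tested.

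Mitochondrial transcripts differed in both directions. The ribosomal RNAs were higher by DRaqL-Smart-seq2, most mRNAs were lower by less than 1, and the transfer RNAs were lower. mt-Rnr2, the large ribosomal RNA (mitochondrial genome, 1094-2675), was at 13.56 ± 0.38 and 15.32 ± 0.38, or 1.75 higher. Its lowest, median and highest cells were at 12.68, 13.61 and 14.43 by LCM-seq and 14.35, 15.33 and 15.96 by DRaqL-Smart-seq2, and 33 of 34 DRaqL-Smart-seq2 cells were above the highest LCM-seq cell. mt-Rnr1, the small one (70-1024), was at 11.53 ± 0.36 and 12.77 ± 0.36, or 1.24 higher, with 30 cells above. Over the alternatives that were run, the difference was 1.69 to 1.95 for mt-Rnr2 and 1.15 to 1.44 for mt-Rnr1.

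The 13 mitochondrial mRNAs, which encode subunits of the respiratory chain and the ATP synthase, had a median difference of -0.48, with 9 below 0 and 0 past 1 in size. mt-Co3, a subunit of cytochrome oxidase, was at 12.26 ± 0.47 and 11.47 ± 0.47, mt-Co2 at 11.87 ± 0.37 and 11.16 ± 0.36 and the complex I subunit mt-Nd4 at 11.14 ± 0.46 and 10.57 ± 0.51. mt-Co1 (11.10 ± 0.38 and 11.22 ± 0.43) had a difference above 0, and, named after the values were seen, mt-Nd4l had one of 0.97 and mt-Cytb one of -0.90. The 13 summed to medians of 21008 RPM (11883 to 31573) and 14766 RPM (7914 to 21472), and 2 of 34 DRaqL-Smart-seq2 cells lay above the LCM-seq median.

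Of the 22 mitochondrial transfer RNAs, 8 were lower by more than 1 and 0 higher, against 0.924% and 2.34% of the other genes, with a median difference of -0.63. mt-Td was at 7.02 ± 0.68 and 5.53 ± 0.72, mt-Tg at 6.75 ± 0.64 and 5.31 ± 0.80, mt-Ti at 5.76 ± 0.97 and 4.34 ± 0.83 and mt-Tl1 at 5.55 ± 0.89 and 4.28 ± 1.32. mt-Tm was at 4.37 ± 1.03 and 1.98 ± 1.19, the largest difference among them at -2.39. They summed to medians of 523 RPM (237 to 848) and 177 RPM (72.0 to 459), and no DRaqL-Smart-seq2 cell exceeded the LCM-seq median. Transfer RNAs lie between the mRNAs and ribosomal RNAs on the same mitochondrial transcripts, so that reads in them may come from unprocessed or neighboring RNA.

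**Figure D4:**
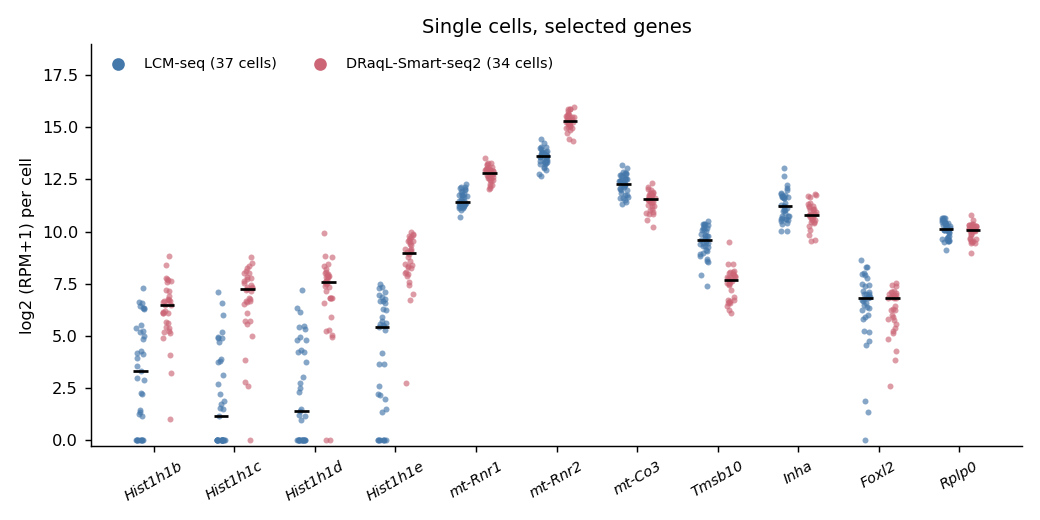
log2 (RPM+1) per cell (y axis) of 11 genes (x axis) in 37 LCM-seq cells and 34 DRaqL-Smart-seq2 cells. Points are single cells and lines are medians. The H1 genes have many LCM-seq cells at or near 0 (Hist1h1c has reads in 19 of 37), mt-Rnr2 separates but for 1 DRaqL-Smart-seq2 cell, Tmsb10 is lower by 2.03, and Inha, Foxl2 and Rplp0 overlap.

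The nuclear genes of the respiratory chain lay around 0. The 83 genes with reads had a median difference of 0.04, with 1 above 1 and 2 below -1, and its sign turned with the ratio of means. Among all protein-coding genes with reads, the shares past 1 were 6.83% above and 1.22% below. Atp5g3, a subunit of the ATP synthase, was at 9.22 ± 0.62 and 9.74 ± 0.48, and Cox4i1, a subunit of cytochrome oxidase, at 8.90 ± 0.51 and 9.24 ± 1.00. The 84 cytosolic ribosomal protein genes had a median of -0.09, which TMM scaling turned to 0.10, and 0 past 1 in size. Rpl41 was at 11.43 ± 0.25 and 11.72 ± 0.30 and Rps29 at 11.13 ± 0.35 and 10.83 ± 0.36. Rplp0, whose protein is part of the ribosomal stalk, was at 10.09 ± 0.40 and 10.01 ± 0.37, a difference of -0.08 that TMM scaling turned to 0.11.

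Genes of glycolysis and of translation were mostly lower by DRaqL-Smart-seq2. Over 13 glycolysis genes, the median difference was -0.57, with 12 below 0, 2 (Gapdh and Ldha) below -1 and 0 above 1, and without the cells that stood apart it was -0.26. For this list and the next, 1.22% of all protein-coding genes with reads were below -1 and 6.83% above 1. Ldha, lactate dehydrogenase A, was at 8.18 ± 1.09 and 7.04 ± 1.73, Pkm, a pyruvate kinase, at 8.11 ± 1.34 and 7.44 ± 1.79, Eno1, an enolase, at 7.99 ± 1.18 and 7.40 ± 1.64, and Aldoa, an aldolase, at 7.92 ± 0.95 and 7.17 ± 1.63. Over 14 translation factors, the median difference was -0.45, with 13 below 0, 1 (Eef2) below -1 and 0 above 1. Eef1b2, which recharges the elongation factor Eef1a1 with GTP, was at 9.04 ± 0.45 and 8.12 ± 0.53, and 34 of 34 DRaqL-Smart-seq2 cells lay below the LCM-seq median. Eef1a1 itself was at 10.73 ± 0.31 and 10.36 ± 0.44, Tpt1 at 10.62 ± 0.39 and 10.01 ± 0.42, and Pabpc1, the poly(A)-binding protein, at 9.19 ± 0.76 and 9.36 ± 0.52.

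The host genes of snoRNAs, whose spliced RNAs are noncoding, were mostly higher. Of 14 host genes, 6 were higher by more than 1 and 0 lower, against 2.34% and 0.924% of the other genes, to which all of them but Snhg11 belong, and the median difference was 0.86. Among the 4 with the highest levels, Gas5 was at 7.39 ± 0.85 and 7.37 ± 0.58, Snhg18 at 6.12 ± 1.79 and 5.45 ± 1.31, Snhg8 at 4.85 ± 2.66 and 5.58 ± 1.77 and Snhg20 at 4.34 ± 2.70 and 5.22 ± 2.11, all within the SD over cells. The 6 past 1, named after their values were seen, were Snhg5 (2.46), Snhg17 (1.55), Snhg12 (1.34), Snhg9 (1.29), Snhg4 (1.18) and Snhg3 (1.13). Snhg5 was at 2.29 ± 1.97 and 4.75 ± 2.18, with reads in 26 of 37 and 31 of 34 cells. The list summed to medians of 504 RPM (208 to 1137) and 575 RPM (285 to 1189), so that the sum differed little while lower members were found in more cells.

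Long noncoding RNAs of the nucleus had mixed values. Of 12 with reads, 2 were higher by more than 1 and 1 lower, with a median difference of 0.34. The shares over all other genes with reads were 2.34% higher and 0.924% lower. Malat1, which resides in nuclear speckles, was at 10.63 ± 1.03 and 11.56 ± 0.74, and Kcnq1ot1, an imprinted antisense RNA, at 6.69 ± 2.46 and 7.37 ± 2.26. Xist, the RNA that coats the inactive X chromosome, was at 8.01 ± 1.74 and 8.65 ± 1.84, and the imprinted Meg3 at 5.96 ± 2.14 and 5.70 ± 2.40. Tsix, which runs antisense to Xist, was at 1.75 ± 2.14 and 5.28 ± 2.29, with reads in 18 of 37 and 31 of 34 cells, and the small RNA gene Gm27520, which lies within Tsix and opposite Xist, at 1.52 ± 2.09 and 4.84 ± 2.39. Where the use of strand is not known, reads of Xist and Tsix cannot be told apart.

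Several other lists differed little. The medians were -0.07 over 14 heat shock chaperones, -0.11 over 22 genes of the secretory machinery, -0.05 over 18 genes of cholesterol synthesis and uptake and -0.03 over 31 spliceosomal proteins, and each of these turned its sign under at least 1 alternative. The cytosolic chaperones Hsp90ab1 (10.20 ± 0.49 and 10.02 ± 0.40) and Hspa8 (9.68 ± 0.43 and 9.42 ± 0.34) and the secretory chaperones Hspa5 (9.68 ± 0.50 and 9.81 ± 0.46) and Hsp90b1 (9.91 ± 0.53 and 10.03 ± 0.49) lay within the SD over cells. Scd2, a fatty acid desaturase of the cholesterol and lipid list, was at 9.05 ± 0.63 and 8.47 ± 0.57, and the splicing regulator Hnrnpa2b1 at 9.23 ± 0.61 and 9.30 ± 0.43. Of 17 immediate early genes with reads, which respond within minutes to handling and stress, 1 was past 1, Ier2 at 1.39 ± 1.95 and 2.90 ± 2.18, whereas Jund was at 3.99 ± 2.00 and 3.86 ± 1.80 and Myc at 2.02 ± 2.48 and 2.26 ± 2.17. The 11 genes of basement membrane and matrix had a median of 0.35 (-0.15 among neighboring cells), with 3 above 1, among them the proteoglycan Vcan (4.98 ± 2.60 and 6.07 ± 1.71), while the laminin chain Lama1 was at 6.45 ± 1.79 and 7.14 ± 1.14. These counts stand beside 6.83% of all protein-coding genes with reads above 1 and 1.22% below -1.

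Zinc finger genes of the Zfp series, most of which encode DNA-binding proteins, had a median difference of 0.23 over 334 genes with reads, with 28 above 1 and 2 below -1. The share above 1 was near the 6.83% of all protein-coding genes. Their mean share of cells with reads was 40.4% and 50.6%, and 28.8% and 33.4% at equal depth. Zfp277, with the highest level of the list, was at 6.99 ± 2.07 and 7.09 ± 1.13. The olfactory and vomeronasal receptors, which sense odors in the nose, gave a background of detection. Of them, 892 had reads in any cell, and the mean share of cells with reads was 3.61% and 4.16%, and 1.44% and 0.964% at equal depth. They summed to medians of 421 RPM (237 to 1138) and 206 RPM (105.2 to 367).

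Beyond the histones, the protein-coding genes with the largest difference toward DRaqL-Smart-seq2 were Tnc, Spef2, Atad5, 2810428I15Rik, Paxbp1 and Dnajc25. Tnc encodes tenascin C, a glycoprotein of the extracellular matrix, and was at 2.13 ± 2.66 and 6.07 ± 2.58, or 3.94 higher. Its lowest, median and highest cells were at 0, 0 and 7.51 by LCM-seq and at 0, 6.42 and 9.15 by DRaqL-Smart-seq2, with reads in 17 of 37 and 31 of 34 cells. Atad5, which unloads the clamp of DNA polymerase, was at 2.72 ± 2.63 and 5.84 ± 1.71, and Spef2, a protein of the sperm flagellum, at 2.13 ± 2.25 and 5.29 ± 2.51. 2810428I15Rik was at 4.09 ± 2.82 and 7.16 ± 0.82, Paxbp1 at 3.43 ± 2.52 and 6.44 ± 1.52, and the co-chaperone gene Dnajc25 at 1.82 ± 2.49 and 4.79 ± 1.94. In each of the 6, LCM-seq cells ranged from 0 to 6.99 or more, so that the ranges of the methods overlapped.

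Toward LCM-seq, the largest differences were those of Gm10801, Prrc2a, Schip1 (the joined model with Iqcj), Psmb7, AA474408, Sepw1, Tmsb10, Gpx3, 1700011I03Rik and Gm9844. Tmsb10 (chromosome 6, 72957347-72958748, minus strand) encodes thymosin β10, a small protein that binds actin monomers, and was at 9.52 ± 0.72 and 7.50 ± 0.74, or 2.03 lower by DRaqL-Smart-seq2. Its lowest, median and highest cells were at 7.38, 9.60 and 10.51 by LCM-seq and 6.09, 7.68 and 9.50 by DRaqL-Smart-seq2, and 34 of 34 DRaqL-Smart-seq2 cells lay below the LCM-seq median. Gm9844 (8.42 ± 0.68 and 6.55 ± 0.67) and the noncoding Gm8034 (8.15 ± 0.83 and 5.63 ± 0.95) and Gm3788 (9.05 ± 0.76 and 6.83 ± 0.79) were lower too, but these loci resemble Tmsb10 in sequence, and the division of reads among them is uncertain. Psmb7, a subunit of the proteasome whose model overlaps other genes, was at 5.50 ± 1.35 and 3.24 ± 1.30, Sepw1, a selenoprotein, at 4.72 ± 1.70 and 2.69 ± 1.52, Gpx3, a selenium-dependent glutathione peroxidase, at 4.44 ± 2.54 and 2.43 ± 2.61, and Prrc2a at 4.02 ± 1.76 and 1.70 ± 1.70. Gm10801 was at 4.57 ± 2.37 and 1.61 ± 1.55, AA474408 at 4.04 ± 1.00 and 1.98 ± 1.44 and 1700011I03Rik at 6.53 ± 0.78 and 4.64 ± 0.91.

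Among the other genes, Gm15122, which lies opposite Dazap1, was at 0.99 ± 2.01 and 5.26 ± 2.11, the largest difference toward DRaqL-Smart-seq2 (4.27). After Tsix and Gm27520 followed Gm23301, which lies within Rpl17, at 2.20 ± 1.33 and 5.49 ± 0.90, and Gm37868 at 1.48 ± 2.27 and 4.62 ± 2.16. Gm26870 was at 5.35 ± 2.44 and 1.40 ± 1.92, the largest difference toward LCM-seq (-3.95), and overlaps 9 gene models on the opposite strand. The microRNA locus Mir3076, which lies within Tkt, was at 5.40 ± 1.32 and 3.19 ± 1.53. Named after their values were seen, Yam1 (14.59 ± 0.56 and 13.98 ± 0.51) and Rn18s-rs5 (10.32 ± 0.67 and 11.38 ± 0.73) overlap on opposite strands of chromosome 17. The TEC locus RP24-328P2.8, also named after its values were seen, was at 12.47 ± 0.58 and 13.73 ± 0.74. This locus held most of the TEC share of reads given above in both methods.

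The length of the transcript moved with the difference. Of the 3790 protein-coding genes with a mean of at least 4 over the 71 cells, 3785 had an annotated transcript. In 5 groups of equal size by transcript length, with median lengths of 1055, 2403, 3633, 4960 and 7988 bases, the median differences were 0.02, 0.09, 0.15, 0.30 and 0.32. In 5 groups by GC content, they were 0.21, 0.21, 0.18, 0.13 and 0.20. These splits were added after the values were seen, and the ranges between quartiles of the groups overlapped.

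DRaqL was also paired with a commercial kit in the series. Per the methods of the study, its DRaqL arm also added SuperScript II and SuperScript III to the enzyme of the kit. Lysis and enzymes thus changed together in this pair too, and their parts cannot be told apart. There, 39 cells by DRaqL-SMART-Seq v4 and 34 cells by SMART-Seq v4 were cut from the same ovary, and the values of both pairs are set side by side without a test. In the kit pair, 21.5% of 19394 protein-coding genes were past 1 toward DRaqL-SMART-Seq v4 and 0.985% in the other direction. The H1 genes were higher in both pairs, Hist1h1d by 4.68 and 3.78, Hist1h1c by 4.68 and 3.40, Hist1h1e by 4.56 and 3.59 and Hist1h1b by 3.08 and 4.68. So were mt-Rnr2 (1.75 and 2.31) and mt-Rnr1 (1.24 and 2.81). Core histones had medians of 0.92 and 1.46. Tmsb10 was lower in both (-2.03 and -1.24), while Tnc was higher in both (3.94 and 1.56).

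In the kit pair, the protein-coding genes with a mean of at least 4 in at least 1 of the first 2 methods were shifted as a whole, with a median difference of 1.06 against 0.26 in the first pair, and the list medians are to be read against these values. The median was -0.57 and 1.44 for glycolysis, -0.37 and 0.43 for the granulosa markers, 0.04 and 1.18 for the nuclear genes of the respiratory chain and -0.63 and -0.04 for the mitochondrial transfer RNAs. Translation factors had medians of -0.45 and -0.21. Across 4410 protein-coding genes with a mean of at least 4 in at least 1 of the first 2 methods, the differences of the pairs were correlated at 0.245 (Pearson) and 0.234 (Spearman). The pairs share no library.

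**Figure D5:**
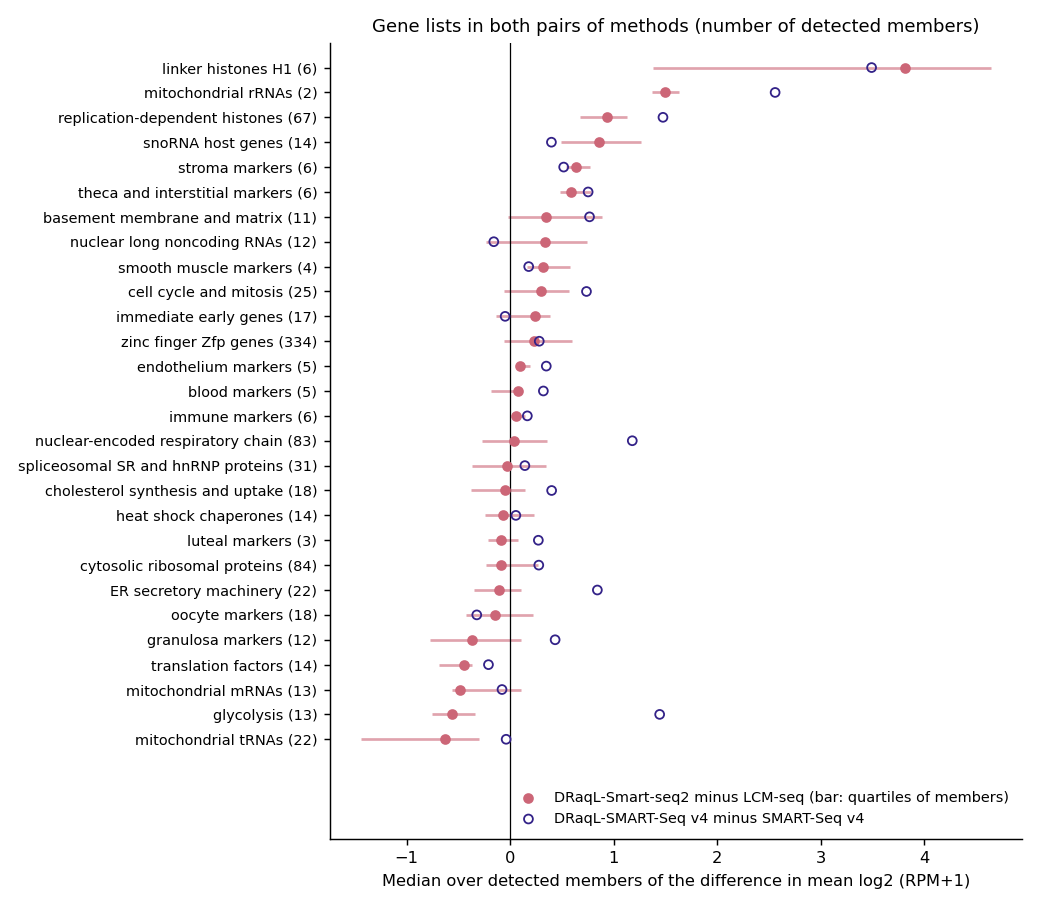
Median over members with reads of the difference in mean log2 (RPM+1) (x axis) for the gene lists (y axis), for DRaqL-Smart-seq2 minus LCM-seq (filled points, bars from the first to the third quartile of members) and for DRaqL-SMART-Seq v4 minus SMART-Seq v4 (open points). Linker histones (3.82 and 3.49) and mitochondrial ribosomal RNAs (1.50 and 2.56) are highest in both pairs, and glycolysis lies on opposite sides of 0, in a kit pair where genes with a mean of at least 4 had a median of 1.06.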

How the data were processed

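Per the methods of the study, Read 1 was trimmed with fastp 0.20.0 and cutadapt 1.16 and mapped to GRCm38 with HISAT2 2.1.0, and the authors deposited raw counts of reads per gene, made with HTSeq 0.10.0 within 10 kb of annotated 3′ ends, and counts of reads per ERCC spike-in. Counting near 3′ ends joins genes that end close together, and use of the strand is not given in the sources used here. Gene classes came from the biotypes deposited beside another table of the series with the same 45905 genes.

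RPM was computed over all genes of a cell, and levels as log2 (RPM+1). A model across genes was not fitted, since each method is 1 sample. Libraries were thinned with seed 20230918. Calls are by size, at 1 on the log2 scale or 25 percentage points, and the calculation was tested on simulated data. Python 3.11.15, numpy 2.4.6, pandas 2.3.3 and scipy 1.17.1 were used, with edgeR 4.0.16 in R 4.3.3 for TMM factors alone. Gene positions and transcripts are from GENCODE M21.

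The members and the 28 gene lists were chosen with earlier results of these data known. Named were marker genes, the 4 members of each list with the highest mean, the 10 protein-coding and 5 other genes in each direction with the largest difference among genes with a mean of at least 4 in at least 1 method, the 5 protein-coding genes in each direction by detection, and Rplp0. A gene that this rule names is not reported here. Other list members past 1 that are named, such as Gapdh and Eef2, were named after their values were seen. Alternatives were another pseudocount, scaling, total, read minimum or averaging, thinning, the position of the cells, the in-line index, leaving out each pool, and, chosen after seeing the data, leaving out cells that stood apart (under 60% of the method's median of protein-coding genes, or over 3 times its lincRNA or TEC share) or held over 2000 RPM of oocyte markers.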

Additional observations from a re-analysis of the deposited data

How the results depend on the processing

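No paired analysis was possible because the labels pair no cell of one method with a cell of the other, and each method counted as 1 sample. The in-line index, which cells of both methods share, marks a cell within its pool and served for the comparisons within an index. The medians of 13 lists, the shares of 6 gene classes, Foxl2, Rplp0 and the median of protein-coding genes with a mean of at least 4 turned their sign under at least 1 alternative, all from differences below the size taken as large. The count of protein-coding genes past 1 toward DRaqL-Smart-seq2 and LCM-seq was 1356 and 243, and for other genes 392 and 155. With a pseudocount of 0.1 these were 3480 and 683, and 1280 and 338, and with a pseudocount of 10 they were 119 and 36, and 59 and 33. With TMM scaling, 160 protein-coding and 89 other genes were past 1 toward LCM-seq, with the ratio of mean RPM 1635 protein-coding genes, and 915 and 1183 other genes in the 2 directions, at equal depth 424 and 254, and among neighboring cells 887 and 324. Among non-neighboring cells 461 protein-coding genes were lower. Among genes with a mean of at least 4 in at least 1 method, 654 and 94 protein-coding genes and 127 and 110 other genes were past 1. Leaving out each pool gave 252 to 401 protein-coding genes toward LCM-seq, the higher values without pools S5 (401) and S4 (366). For detection, 6.25% of protein-coding genes were higher and 0.131% lower. At equal depth these were 3.05% and 0.569%, at 200000 reads 3.85% and 0.629%, and without the cells that stood apart 9.41% were higher. Among non-neighboring cells 11.4% were higher and 0.282% lower, among neighboring cells 1.92% lower, with at least 5 reads 0.0856% lower, and leaving out each pool gave 0.141 to 0.267% lower. The median difference of protein-coding genes with a mean of at least 4 moved from 0.19 to 0.082 with a pseudocount of 10, 0.37 with TMM scaling, -0.024 with the ratio of means, 0.32 without the cells that stood apart and 0.29 without those with oocyte RNA. The median of the mitochondrial transfer RNAs of -0.63 was -1.03 with a pseudocount of 0.1, -0.23 with 10, -1.02 with the ratio of means and -0.996 among neighboring cells. That of the linker histones of 3.82 was 2.36 with a pseudocount of 10 and 2.63 with the ratio of means. With ERCC reads in the total, the difference in median share was 5.47 percentage points for protein-coding genes, 0.346 for processed pseudogenes, -0.333 for unprocessed pseudogenes, 0.0503 for microRNA loci and 0.377 for snoRNAs. Over genes above 4 in at least 1 cell, the median r was 0.553 for LCM-seq pairs and 0.580 for mixed pairs. Thinning can only lower or keep the share of cells with reads. For protein-coding genes with a mean between 4 and 5, it took the mean share from 85.4% to 74.2% by LCM-seq. By DRaqL-Smart-seq2, the share went from 91.8% to 80.9%. The causes of the changes under the alternatives were not tested.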
